A study of Mus musculus with 11 samples.

Results

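Metabotropic glutamate receptor signalling through the IP3 receptor was followed here in 6 genes of the Purkinje cell, chosen by symbol in the count files: Gnaq, Gna11, Homer3, Itpr1, Car8 and Rgs8, out of 55421 genes listed. All 6 passed the filter on low counts, which left 13375 genes. The series sequenced ribosome-bound RNA from whole mouse cerebellum on postnatal day 56 in 11 libraries, each with its own animal tag. Control mice (7 libraries) carried Pcp2Cre and Rpl22HA/HA, in which Cre under the Pcp2 promoter puts an HA tag on the ribosomal protein Rpl22 of Purkinje cells so that their ribosomes can be pulled down with an antibody. Knockout mice (4 libraries) carried Pcp2Cre, Rpl22HA/HA and Tie2flox/flox, so that the same Cre also acts on the angiopoietin receptor Tie2. Every animal of both groups therefore carried the Cre and the tagged ribosome, and the cells in which the Cre acts are set by the Pcp2 promoter. The labels give 3 batches, with knockouts F371 and M374 and control M379 in batch 1, knockout M390 and control M386 in batch 2, and knockout M456 and controls F473, M476, M477, M479 and M480 in batch 3. Nothing beyond the tags ties the libraries to separate animals, so p-values measure the spread between these libraries.

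In Purkinje cells glutamate from parallel fibres activates metabotropic glutamate receptors. These act through the G protein alpha subunits of Gnaq and Gna11 on phospholipase C beta, which splits the membrane lipid PIP2 into diacylglycerol and IP3. IP3 then opens the receptor encoded by Itpr1 and releases calcium from the endoplasmic reticulum, a step needed for long-term depression of the parallel fibre synapse, and loss of Itpr1 or Car8 function causes ataxia in mice. Homer3 encodes a scaffold that links the metabotropic receptor to the IP3 receptor, Car8 a carbonic anhydrase relative without catalytic activity that binds the IP3 receptor and lowers its affinity for IP3, and Rgs8 a protein that speeds the return of G protein alpha subunits to their inactive state.

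Reads counted in genes ranged from 2583227 to 4199299 in the knockouts and from 4087197 to 5142671 in the controls. Pcp2 (295 to 502 reads) and Calb1 (2887 to 3710 reads), markers of Purkinje cells, were present in every library. The floxed gene Tek had 0 to 14 reads in the knockouts and 0 to 40 in the controls, too few to check the genotype labels. Markers of other cells were carried along, and their summed levels were higher in the knockouts for granule cells (567 to 1630 CPM, reads scaled to a common library size, against 420 to 857), for Bergmann glia and astrocytes (928 to 1647 against 840 to 1034) and for oligodendrocytes (325 to 1001 against 283 to 730), with overlap in each. For microglia the sums were 7.55 to 85.5 CPM in knockouts and 14.9 to 43.7 in controls, for endothelial and mural cells 20.3 to 117.9 and 15.0 to 99.6, for interneurons and unipolar brush cells 78.2 to 171 and 40.7 to 81.9, and for choroid plexus 268 to 608 and 274 to 428. By edgeR 8 of 12 granule cell markers tested, 6 of 12 of Bergmann glia and astrocytes and 3 of 11 of oligodendrocytes were higher and none lower (none lower at an unadjusted p under 0.05 either). Of the markers of interneurons and unipolar brush cells 3 of 6 were higher, of microglia 2 of 7, of choroid plexus 2 of 5 and of endothelial and mural cells 1 of 6, with none lower by edgeR (1 choroid plexus marker at an unadjusted p under 0.05). No marker of these lists was at 0 in all libraries, and the defining markers Gabra6 of granule cells (87 to 321 reads), Cldn5 of endothelium (13 to 249) and Csf1r of microglia (4 to 55) had reads in every library. The Purkinje cell markers other than the 6 genes summed to 4386 to 5663 CPM in knockouts and 4470 to 4992 in controls, and 4 of 13 were higher and 1 lower by edgeR. Beside all of these marker counts, 10.9% of all genes tested were higher and 13.4% lower by the same test. Knockout libraries also had fewer genes detected (17113 to 18324 against 17744 to 22471), more reads outside genes (7.29% to 12.0% against 6.11% to 7.76%) and more reads aligned to several places (8.83% to 10.6% against 7.91% to 9.41%), each with overlap.

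Of the 6 genes, Gna11 and Homer3 were lower and Car8 was higher in the knockouts, and Gnaq, Itpr1 and Rgs8 did not pass the test. Genes were tested with edgeR's quasi-likelihood test with batch and genotype in the model, and p-values were adjusted over all tested genes by Benjamini-Hochberg with a threshold of 0.05. By that rule 24.4% of all tested genes differed, 10.9% higher and 13.4% lower in the knockouts, beside 3 of the 6 genes. The 6 were chosen with earlier results of these data known, so setting them beside the whole table is not a test. The 4 knockout and 7 control values did not overlap for 2 of the 6 genes, both lower, where 13.0% of all tested genes did not overlap and 6.77% did so in the lower direction (6.20% in the higher). The count over all genes, 1461 higher and 1796 lower, fell to 64 and 271 without knockout M456 and to 306 and 216 without control M379, and the higher count rose to 2252 and 2269 without knockout M390 or control M386, the only pair of batch 2.

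**Figure D1:**
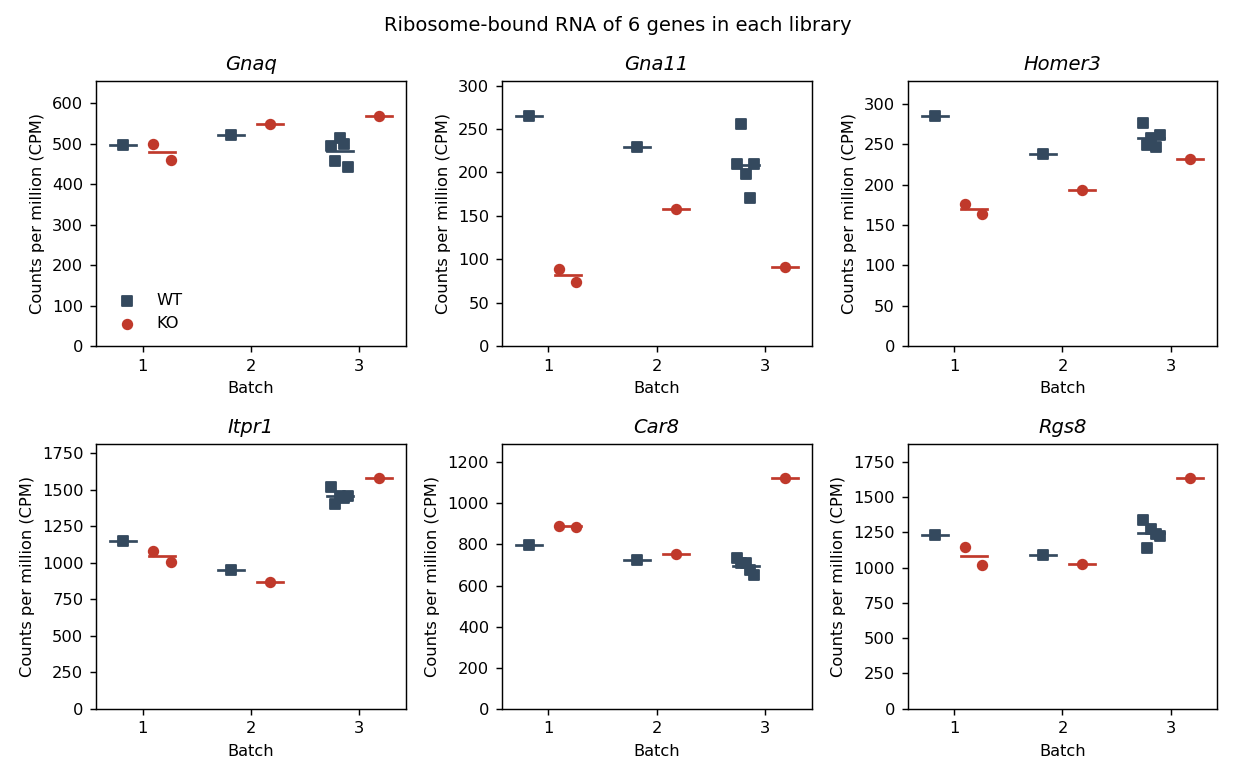
Level of each of the 6 genes in every library, in CPM on a linear axis from 0, by batch, with controls (WT, squares) and knockouts (KO, circles) side by side and a line at the mean of each group within the batch. Gna11 and Homer3 lie lower in the knockouts of all 3 batches, Car8 lies higher, and Itpr1 differs more between batches than between genotypes.

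Gna11, one of the pair of alpha subunits that couple metabotropic receptors to phospholipase C, showed the largest difference of the 6 genes. The gene (ENSMUSG00000034781, chromosome 10, 81528724 to 81545162 in GRCm38.p6) stood at 89.1 CPM in knockout F371, 73.9 in M374, 158 in M390 and 91.6 in M456. The 7 controls ranged from 170 CPM (M479) through a median of 209 to 265 (M379). Every knockout was therefore below every control, with M390 of batch 2 nearest to them. The fitted log2 fold change was -1.20 ± 0.17 (SE), a level 0.435 times that of the controls (95% interval 0.337 to 0.560; edgeR adjusted p = 0.00189). Within batches 1, 2 and 3 the log2 ratio of mean CPM was -1.70, -0.54 and -1.18. Gna11 passed the threshold with each library left out in turn (log2 fold change -1.40 to -0.90, edgeR adjusted p at most 0.0383). With the mean log2 CPM of granule cell, Bergmann glia, astrocyte and oligodendrocyte markers as a covariate the log2 fold change was -0.69 (edgeR adjusted p = 0.499, unadjusted 0.0131), and with the library total it was -1.21 (edgeR adjusted p = 0.234, unadjusted 0.00102), in fits where no gene of the whole table passed. Over all 22 alternative settings the adjusted p of Gna11 ran from 4.03e-08 to 0.499. In bulk RNA, fewer ribosomes of a cell type and less RNA of a gene per cell cannot be told apart.

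Gnaq, the other alpha subunit of the pair, did not pass the test. Its levels were 499 CPM in F371, 461 in M374, 548 in M390 and 570 in M456, and 442 to 522 CPM with a median of 498 in the controls, so the groups overlapped. On the log2 scale the difference was 0.10 ± 0.08 (SE; edgeR adjusted p = 0.393), with a 95% interval of 0.947 to 1.21 times the control level. Gnaq (ENSMUSG00000024639) lies on chromosome 19 from 16132684 to 16388520, a span that also holds the pseudogenes E030024N20Rik, Gm10819 and Gm17068 with 49, 36 and 76 reads in the 11 libraries together.

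The promoters of the Gnaq and Gna11 pair are shown because one gene of the pair fell and the other did not pass the test. Each window, from the RefSeq table of build GRCm38.p6, runs from 250 bases before to 50 bases after a transcription start, in the direction of the gene. Capitals mark GC boxes (GGGCGG or CCGCCC) and CCAAT boxes (CCAAT or ATTGG), searched on both strands. The motifs can share letters at their ends (CCGCCC with CCAAT), which does not occur in the windows shown. Gnaq is at chr19:16132434-16132733 on the plus strand and Gna11 at chr10:81545113-81545412 on the minus strand.
Gnaq: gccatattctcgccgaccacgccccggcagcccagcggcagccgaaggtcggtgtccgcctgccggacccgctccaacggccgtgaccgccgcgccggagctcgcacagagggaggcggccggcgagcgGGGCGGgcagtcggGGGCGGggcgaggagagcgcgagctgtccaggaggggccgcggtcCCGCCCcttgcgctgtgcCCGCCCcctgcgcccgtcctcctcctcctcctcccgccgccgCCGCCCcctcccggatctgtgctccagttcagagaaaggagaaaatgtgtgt
Gna11: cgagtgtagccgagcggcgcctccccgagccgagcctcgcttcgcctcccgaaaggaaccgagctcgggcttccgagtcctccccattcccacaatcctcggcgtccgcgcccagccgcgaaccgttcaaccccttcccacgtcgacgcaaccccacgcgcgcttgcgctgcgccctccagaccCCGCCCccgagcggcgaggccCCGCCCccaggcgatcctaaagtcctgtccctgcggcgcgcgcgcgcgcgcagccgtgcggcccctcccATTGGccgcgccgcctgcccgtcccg
Both windows are 75% G and C, against a median of 52.7% over 32851 promoter windows. Gnaq has 5 GC boxes and no CCAAT box, and Gna11 has 2 GC boxes and 1 CCAAT box. A GC box is found in 35.7% of all windows and a CCAAT box in 37.4%. These counts describe letters and not bound sites.

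As a share of the reads of the pair, Gnaq rose in the knockouts. Reads per gene also depend on transcript length, so these are shares of reads and not of molecules. Gnaq held 84.9% of Gnaq and Gna11 reads in F371, 86.2% in M374, 77.6% in M390 and 86.2% in M456, against 64.1% to 74.6% with a median of 69.4% in the controls. The groups did not overlap. The mean was 83.7% ± 4.12 in knockouts and 69.1% ± 3.70 in controls (SD, n = 4 and 7), and a two-sided exact permutation test within batches gave a difference of 15.6 percentage points with p = 0.0278, the smallest that its 36 arrangements allow (adjusted p = 0.0417 over the 3 shares tested here). By batch, from 1 to 3, it amounted to 20.3, 8.16 and 16.4 points. Gnaq and Gna11 together summed to 623 CPM ± 76.1 in knockouts and 710 CPM ± 40.1 in controls (SD), with ranges of 535 to 706 and 652 to 763 that overlapped. A share of reads does not depend on the scaling of the library. Markers of granule cells and glia were higher in the knockouts, and their part in this share was not tested. The share uses the same Gna11 reads as the test of Gna11, so it is not a separate measurement.

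Homer3, the scaffold between metabotropic and IP3 receptors, fell by a smaller amount. Its level was 176 CPM in F371, 164 in M374, 193 in M390 and 231 in M456, and 238 to 286 CPM with a median of 258 in the controls. All 4 knockouts were below all 7 controls, with M456 (231) close under the lowest control M386 (238). The log2 fold change was -0.39 ± 0.11 (SE), or 0.762 times the control level (95% interval 0.650 to 0.893; edgeR adjusted p = 0.0171). The within-batch log2 ratios were -0.75, -0.30 and -0.16 in batches 1, 2 and 3. Without control M379, the only control of batch 1, the log2 fold change was -0.19 and did not pass (edgeR adjusted p = 0.258, with a range of 0.00971 to 0.608 over the 22 alternatives).

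Homer3 (ENSMUSG00000003573, chromosome 8, 70282880 to 70294361) overlaps Ddx49, which had 418 reads in the 11 libraries together. Its promoter window at chr8:70282749-70283048 on the plus strand is given because Homer3 and Gna11 were the 2 genes of the 6 that fell, with the same marks as above.
Homer3: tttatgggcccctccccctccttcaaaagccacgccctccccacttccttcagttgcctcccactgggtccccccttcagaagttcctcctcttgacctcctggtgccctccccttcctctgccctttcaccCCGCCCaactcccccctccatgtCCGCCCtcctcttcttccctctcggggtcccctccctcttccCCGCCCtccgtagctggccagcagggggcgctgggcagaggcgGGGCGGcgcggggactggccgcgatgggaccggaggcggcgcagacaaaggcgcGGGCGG
The window is 69.7% G and C and holds 5 GC boxes and no CCAAT box.

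Among the other Homer genes Homer2 was higher, and the Homer3 share of Homer reads was lower in every knockout. Homer2 averaged 22.9 CPM ± 4.76 in knockouts against 10.2 ± 4.32 in controls (SD), a log2 fold change of 1.69 ± 0.33 (SE; edgeR adjusted p = 0.00401). Homer1 stood at 67.5 CPM ± 11.7 in knockouts and 42.6 CPM ± 11.3 in controls and did not pass (log2 fold change 0.60 ± 0.23 SE, edgeR adjusted p = 0.0641), with a log2 ratio of -0.23 in batch 2 and 0.63 and 1.02 in batches 1 and 3. Homer3 held 65.5% of the reads of the 3 Homer genes in F371, 62.6% in M374, 74.1% in M390 and 69.1% in M456, against 78.9% to 86.4% with a median of 84.0% in the controls. The within-batch difference was -14.2 percentage points (means 67.8% ± 4.94 and 83.0% ± 2.84, SD; exact two-sided permutation p = 0.0278, again at its floor, adjusted p = 0.0417). By batch it was -20.8, -4.82 and -14.4 points. The share uses the same Homer3, Homer2 and Homer1 reads as the edgeR tests of these genes, so it is not a separate measurement. Markers of granule cells and glia were also higher in the knockouts. With their mean log2 CPM as a covariate the Homer2 log2 fold change was 1.74 and with the library total 2.32, in fits where no gene passed, and the part of these markers in the share was not tested.

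**Figure D2:**
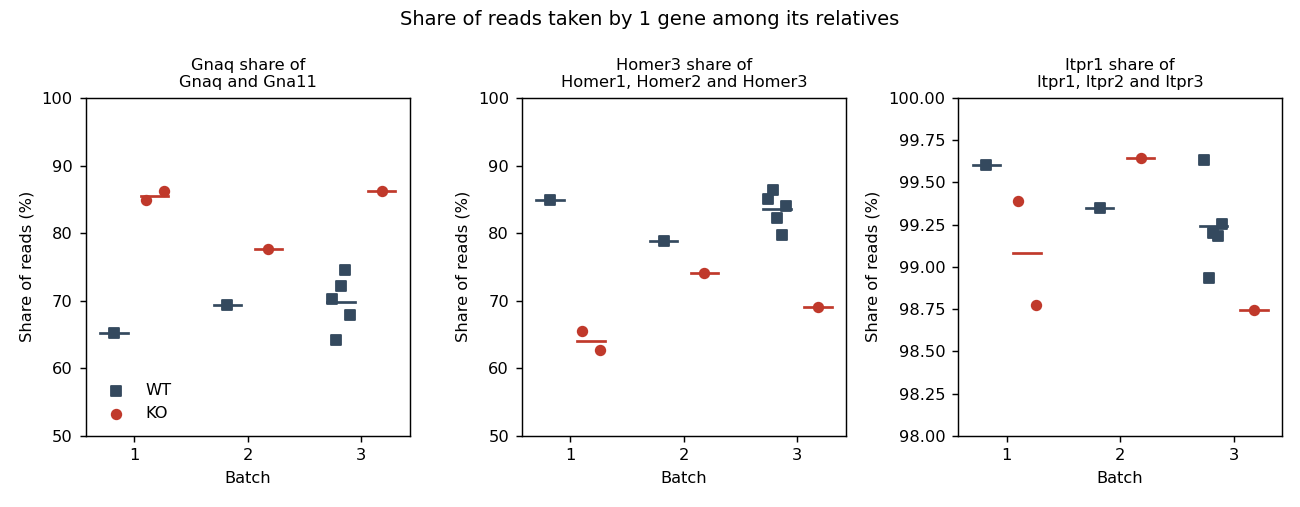
Share of reads in percent taken by Gnaq among Gnaq and Gna11, by Homer3 among the 3 Homer genes and by Itpr1 among the 3 IP3 receptor genes, per library and batch, with a line at each group's mean. The axes start at 50% in the first and second panels and at 98% in the last. Knockouts lie above controls for Gnaq and below for Homer3, and overlap them for Itpr1.

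Itpr1, the calcium release channel at the end of the pathway, varied with batch and not detectably with genotype. Levels were 1083 CPM in F371, 1007 in M374, 865 in M390 and 1579 in M456, and 949 to 1521 CPM with a median of 1443 in the controls. Batch 3 was high in both genotypes, with its 5 controls at 1401 to 1521 CPM, while controls M379 of batch 1 and M386 of batch 2 were at 1147 and 949. With batch in the model genotypes differed by -0.03 ± 0.07 in log2 units (SE; edgeR adjusted p = 0.801), and the 95% interval of 0.886 to 1.09 times the control level was the narrowest of the 6 genes on the log2 scale. The within-batch log2 ratios were -0.13, -0.13 and 0.12. Itpr1 (ENSMUSG00000030102) spans chromosome 6 from 108213083 to 108551116.

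Itpr1 accounted for nearly all IP3 receptor reads in both genotypes. Its share was 98.7% to 99.6% in the knockouts and 98.9% to 99.6% in the controls, and the within-batch difference of -0.305 percentage points did not pass (means 99.1% ± 0.449 and 99.3% ± 0.246, SD; two-sided exact permutation p = 0.25, adjusted p = 0.25). Itpr2 stood at 7.97 CPM ± 6.13 in knockouts and 4.21 CPM ± 1.98 in controls (edgeR adjusted p = 0.0559), and Itpr3 at 2.60 CPM ± 1.53 and 5.23 CPM ± 2.75 (SD, edgeR adjusted p = 0.386).

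Car8, which restrains the IP3 receptor, rose in the knockouts, and the size of the rise rested on 1 library. Its level was 889 CPM in F371, 887 in M374, 753 in M390 and 1122 in M456, and 650 to 796 CPM with a median of 712 in the controls. M390 lay within the control range, and each knockout was above the controls of its own batch. The Purkinje cell marker Calb1 lay the same way, at 954 and 969 CPM in the knockouts of batch 1 against 879. Calb1 was at 864 against 848 in batch 2 and at 1159 against 728 to 803 in batch 3. Its part in the Car8 difference was not tested. The 13 Purkinje cell markers did not all move alike. By edgeR 4 were higher, 1 was lower and 8 did not pass, with log2 fold changes from -0.45 to 0.51. Over all genes tested, 10.9% were higher and 13.4% lower. The log2 fold change of Car8 was 0.36 ± 0.10 (SE), or 1.29 times the control level (95% interval 1.11 to 1.48; edgeR adjusted p = 0.0158), with within-batch log2 ratios of 0.16, 0.05 and 0.69. Without knockout M456 the log2 fold change was 0.11 and did not pass (edgeR adjusted p = 0.424, with a range of 0.00229 to 0.996 over the 22 alternatives). Car8 (ENSMUSG00000041261) lies on chromosome 4 from 8141493 to 8239041.

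The raw reads of Car8 barely followed the size of the library. They numbered 2794 to 3186 in the knockouts and 3061 to 3304 in the controls, a ratio of 1.18 between the highest and the lowest library, while the library total differed by a ratio of 1.99. The same ratio was 1.29 for Calb1, 1.70 for the Purkinje cell marker Pcp2, 1.72 for Gnaq, 1.80 for Rgs8, 2.16 for Itpr1, 2.38 for Homer3 and 4.83 for Gna11. M456, with the highest Car8 level in CPM, had the fewest Car8 reads and the smallest total. With the library total as a covariate the log2 fold change of Car8 was 0.0020 (edgeR adjusted p = 0.996), whereas those of Gna11 and Homer3 were -1.21 and -0.54.

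**Figure D3:**
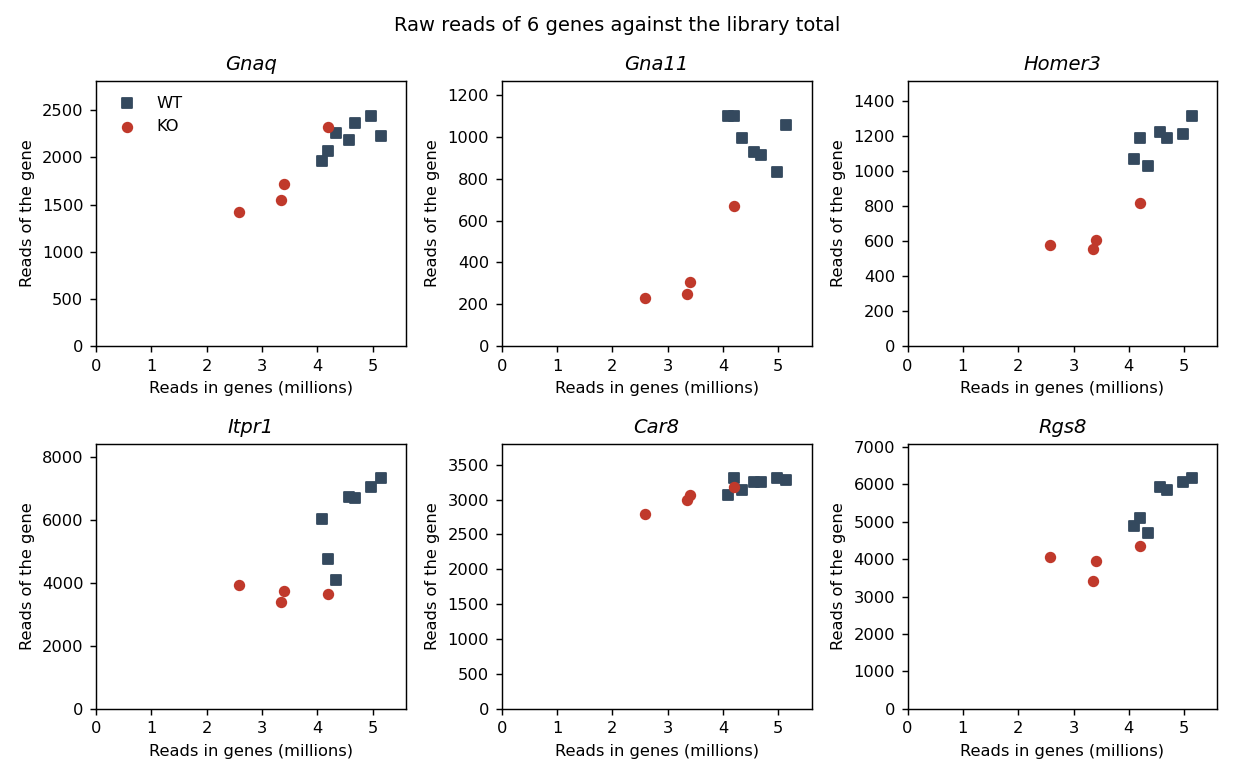
Raw reads of each gene against the reads counted in all genes of the library, both on linear axes from 0, for controls (squares) and knockouts (circles). Car8 reads stay between 2794 and 3304 over the whole range of totals, and Gna11 reads of the 4 knockouts (228 to 670) lie below those of all controls (834 to 1102).

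Rgs8, the regulator of G protein alpha subunits, did not pass the test. It stood at 1146 CPM in F371, 1017 in M374, 1028 in M390 and 1631 in M456, and at 1089 to 1340 CPM with a median of 1232 in the controls. M456 was above all other libraries, and the other 3 knockouts were below the controls of their batches. Its log2 fold change came to 0.09 ± 0.10 (SE; edgeR adjusted p = 0.531; 95% interval 0.922 to 1.22 times the control level), with within-batch log2 ratios of -0.19, -0.08 and 0.39. Rgs8 (ENSMUSG00000042671) lies on chromosome 1 from 153652959 to 153697669.

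The libraries did not order the 6 genes alike, and Gna11 stood apart from the others. After batch and genotype were removed, deviations of the genes other than Gna11 had a Pearson r of 0.62 (Homer3 with Car8) or more. The highest was 0.98, for Itpr1 with Rgs8. Gna11 had r of 0.56 with Homer3, 0.07 with Gnaq, 0.04 with Itpr1, -0.01 with Car8 and 0.08 with Rgs8. These r cover 11 libraries with 7 residual degrees of freedom, and the values share library and scaling. Among tested genes of at least 10 CPM on average, the 2 whose log2 CPM over the 11 libraries was most like that of Gna11 were Plvap and Gtf3a (r = 0.99 and 0.99). For Gnaq they were Rnf19b and Kbtbd11 (0.95 and 0.90), for Homer3 Wbp2 and Ptprr (0.98 and 0.98), and for Itpr1 the calcium pump gene Atp2b2 and the store sensor gene Stim1 (0.99 and 0.99). For Car8 they were Id2 and Selenow (0.99 and 0.99), and for Rgs8 Ndrg4 and Sult4a1 (0.96 and 0.95). By deviations from the batch and genotype fit, Car8 was most like the Purkinje cell genes Ppp1r17 and Calb1 (0.996 and 0.995), Rgs8 like Dgkz and Sult4a1 (0.99 and 0.98), and Itpr1 like Frmpd3 and Dgkz (0.99 and 0.98). By the same measure Gna11 was most like Pqlc2 and Plvap (0.99 and 0.98), Homer3 like Dync1li1 and Susd4 (0.99 and 0.98), and Gnaq like Ctbp1 and Rnf19b (0.97 and 0.96). The genes named as most like were picked as the 2 highest r of all genes searched. High values are therefore built into the choice, and none was tested.

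The other genes of the pathway, 69 chosen by function, showed no common direction. Of the 65 that were tested, 5 rose, 9 fell and 51 did not pass, next to 10.9% and 13.4% of all genes tested. Their median log2 fold change was 0.03, against -0.02 over all genes. Gna14, Gna15, Plcb2 and Itpkc were removed as low, with 7, 10, 3 and 6 reads in the knockouts and 33, 14, 4 and 72 in the controls. Without knockout M456 the counts were 1 and 3, without control M379 2 and 3, without M390 or M386 12 and 9, and without control M476 9 and 10. Of the 14 genes that passed, Homer2 and Car7 passed with each library left out in turn, 12 did not pass without M456 and 9 did not pass without M379. All 14 kept their sign in the 22 alternatives.

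In the gene groups on either side of the G protein no gene passed. None of the 7 receptor and partner genes differed (edgeR adjusted p; 1 had an unadjusted p under 0.05). Of 3 phospholipase C beta genes tested none passed (0 at an unadjusted p under 0.05). Of the forms expressed in Purkinje cells, Plcb4 had a log2 fold change of -0.08 ± 0.08 and Plcb3 of -0.17 ± 0.09 (SE, edgeR adjusted p = 0.495 and 0.167). The Plcb3 groups did not overlap, at 228 to 258 CPM in knockouts and 259 to 317 in controls. Of all genes tested, 6.77% did not overlap in the lower direction. Among 6 beta and gamma subunit genes Gnb2 rose, from 16.2 CPM ± 6.33 to 35.3 CPM ± 20.9 (SD), by 1.41 ± 0.30 on the log2 scale (SE, edgeR adjusted p = 0.00554).

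Among the 8 other RGS genes listed, which encode regulators of G protein signalling and a binding protein of Rgs7, Rgs3 and Rgs7 fell. Rgs3 averaged 16.4 CPM ± 9.38 in knockouts and 42.6 ± 8.89 in controls (SD), a log2 fold change of -1.32 ± 0.33 (SE, edgeR adjusted p = 0.0108), with a ratio of 0.05 in batch 2 against -1.52 and -2.15 in batches 1 and 3. Without knockout M456 it was -0.87 (edgeR adjusted p = 0.150). Rgs7 went from 113 CPM ± 11 to 60.4 CPM ± 28.4 (log2 fold change -1.06 ± 0.23, edgeR adjusted p = 0.00552). Its groups did not overlap, as for 6.77% of all genes tested in the lower direction. Rgs4 and Rgs16, close relatives of Rgs8, had log2 fold changes of 0.06 ± 0.14 and 0.45 ± 0.46 and did not pass (edgeR adjusted p = 0.794 and 0.495).

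Genes that supply PIP2, the substrate of phospholipase C, went both ways. The phosphatidylinositol transfer protein gene Pitpna rose by 0.54 ± 0.12 and the phosphatidylinositol 4-kinase gene Pi4ka by 0.42 ± 0.14 on the log2 scale, and Pip5k1c, whose product makes PIP2, fell by 0.72 ± 0.18 (SE; edgeR adjusted p = 0.00562, 0.0373 and 0.0119; 2 higher and 1 lower of 6). Without knockout M456 the log2 fold change of Pitpna was 0.35 (edgeR adjusted p = 0.162), and Pi4ka passed in 6 of 11 fits with 1 library left out, not without F371, M456, M379, F473 or M477. Pip5k1c stood at 152 CPM ± 41.0 in knockouts and 297 CPM ± 75.6 in controls (SD).

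On the side of IP3, 0 of 6 other receptor and partner genes and 0 of 6 genes for the removal of IP3 passed by edgeR (1 of each had an unadjusted p under 0.05, both higher). Inpp5a, which dephosphorylates IP3, had a log2 fold change of 0.14 ± 0.09, and Itpka, which phosphorylates it, of -0.02 ± 0.10 (SE, edgeR adjusted p = 0.248 and 0.903). In the diacylglycerol arm 1 of 8 genes fell, Dgkg, whose product turns diacylglycerol into phosphatidic acid, by 0.36 ± 0.09 on the log2 scale (edgeR adjusted p = 0.0133). At an unadjusted edgeR p under 0.05, 4 of the 8 were lower and 1 was higher, with a median log2 fold change of -0.27 over the 8. At the same p 2824 of all 13375 genes tested were lower and 2461 higher, with a median of -0.02.

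Among 6 genes of the slow current and of store refilling, Orai2, a store-operated channel subunit, fell by 0.54 ± 0.11 and Stim2, a sensor of store calcium, rose by 0.56 ± 0.14 on the log2 scale (SE, edgeR adjusted p = 0.00458 and 0.0107). Of 5 Homer and Shank scaffold genes besides Homer3, Homer2 rose, and Shank1 and Shank2, which bind Homer proteins, fell by 0.50 ± 0.13 and 0.53 ± 0.12 (edgeR adjusted p = 0.0136 and 0.00622). Without knockout M456 the log2 fold change of Shank1 was -0.25 (edgeR adjusted p = 0.246). Among 4 relatives of Car8, the catalytic form Car7 fell by 1.13 ± 0.16, from 268 CPM ± 22.2 to 127 CPM ± 45.1 (SD, edgeR adjusted p = 0.00182), and Car11, which like Car8 lacks catalytic activity, fell by 1.04 ± 0.25 (edgeR adjusted p = 0.0099). Car10 had a log2 fold change of 0.22 ± 0.22 and did not pass (edgeR adjusted p = 0.496).

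**Figure D4:**
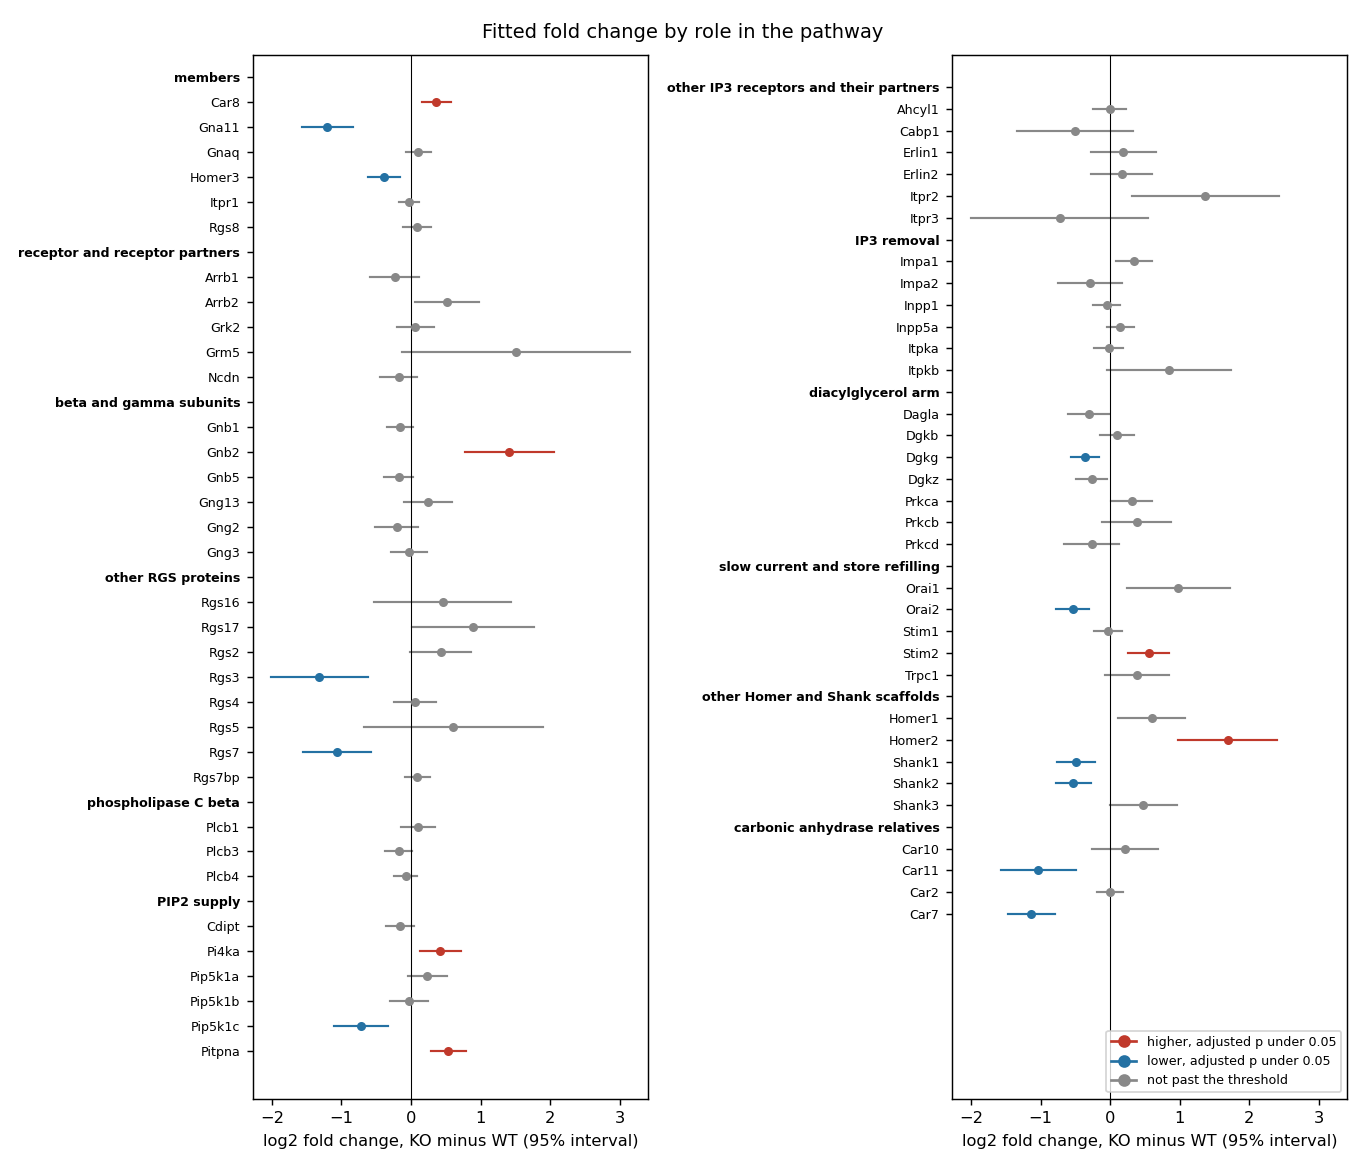
Fitted log2 fold change (knockout minus control) with its 95% interval for the 6 genes and 61 of the 65 other tested pathway genes, grouped by role, with colour for direction where the adjusted p was under 0.05 and grey otherwise. Of the 6 genes Gna11 and Homer3 lie to the left and Car8 to the right of 0, and the 14 coloured pathway genes lie on both sides.

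**Figure D5:**
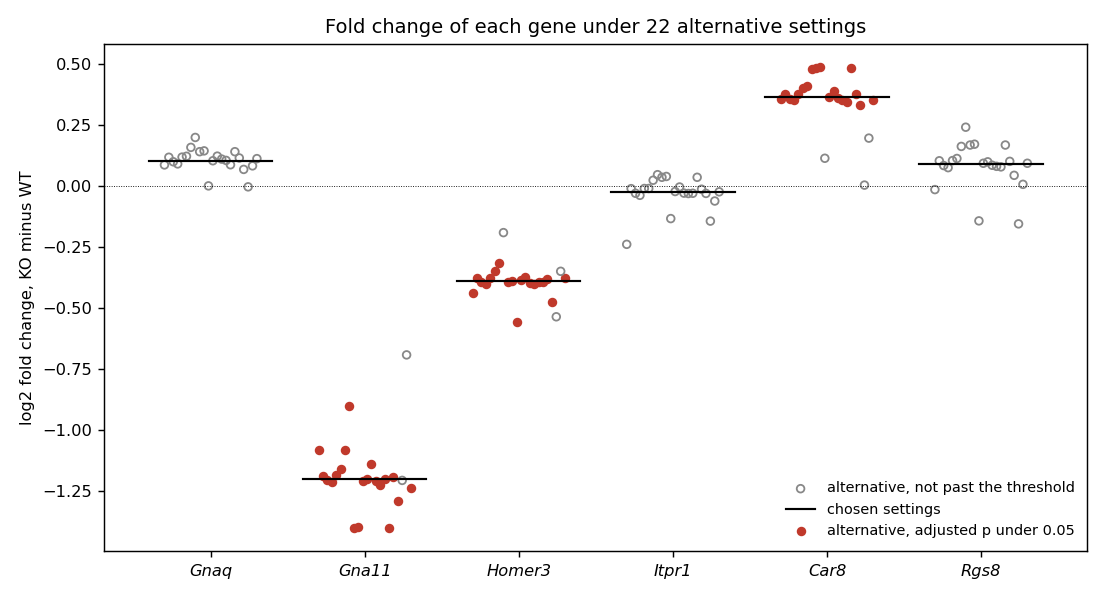
Log2 fold change of each of the 6 genes under the chosen settings (line) and 22 alternatives (points), filled where the adjusted p was under 0.05. Gna11 stays between -1.40 and -0.69 and passes in 20 of 22, Homer3 and Car8 pass in 19 each, and Gnaq, Itpr1 and Rgs8 pass in none.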

How the data were processed

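Ribosome-bound RNA of 11 mouse cerebella was counted per gene. The deposited values are raw read counts, 1 file per library, made with STAR and HTSeq on GRCm38 per the submitters' processing notes; the sources used here do not give versions, counting options or the strand setting. Each file lists 55421 genes and 5 lines that name no gene, which were left out: reads outside genes (6.11% to 12.0% of alignments), ambiguous reads (3.82% to 4.52%) and reads aligned to several places (7.91% to 10.6%). Standard errors were derived from the edgeR test statistic. They and the intervals rest on the spread between libraries, which edgeR moderates for each gene by that of other genes. The intervals therefore use more than the 7 residual degrees of freedom of a single gene.

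Counts were fitted with edgeR 4.0.16 (limma 3.58.1, R 4.3.3): filterByExpr on genotype, TMM scaling, batch and genotype in the model, 7 residual degrees of freedom, Benjamini-Hochberg over 13375 genes. CPM values are TMM-scaled and their group means are not adjusted for batch. For log2 CPM the prior count was 2; within-batch log2 ratios had a pseudocount of 0.5 CPM. Shares of reads were compared by exact permutation within batches. Exon lengths were not used, so levels were not compared between genes. DESeq2 1.42.0, limma-voom and the other alternatives are given in the closing section.

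The 6 genes, the pathway list and the marker lists were chosen with earlier results of these data known. Rgs5 is among the genes that stand in both a pathway and a marker list. Some pathway genes enter the counts but are not reported here by name. Named were the 6 genes, each pathway gene past the threshold, pathway genes fixed by name whether or not they passed (Gna14 among them, too low to test), Gna15, Plcb2 and Itpkc as the other genes removed as low, and for each of the 6 genes the 2 genes most like it. Gene positions and promoters came from RefSeq tables of GRCm38.p6, and 4 of the 6 genes had a promoter entry.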

Additional observations from a re-analysis of the deposited data

Results flagged for a closer look

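Knockout M390, the only knockout of batch 2, lay apart from the other 3 knockouts in the Gnaq share of Gnaq and Gna11 reads. It was at 77.6% and the nearest knockout at 84.9%, a gap of 0.846 of the range of the group, where 0.829 is the limit for 4 samples. It was still above every control. Chance gives such a gap in about 1 of 20 groups, and 18 groups were examined.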

How the results depend on the processing

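Gna11, Homer3 and Car8 kept their sign in all 22 alternatives. A pair of covariates ended the calls. With the library total, the values were -1.21 for Gna11, -0.54 for Homer3, 0.0020 for Car8, -0.0051 for Gnaq and -0.16 for Rgs8. In that fit 0 genes passed in either direction by edgeR. Of the 13375 tested, 1841 had an unadjusted p under 0.05 (8 of the pathway genes), against 5285 with the chosen settings. With the other-cell marker score, Gna11 was at -0.69, Homer3 at -0.35 and Car8 at 0.19, with 0 genes higher and 0 lower by edgeR and 1186 at an unadjusted p under 0.05 (4 of the pathway genes). Both covariates move with genotype, and the cause was not tested.

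Leaving out 1 library at a time gave -0.56 to -0.19 for Homer3, 0.11 to 0.49 for Car8, -0.0012 to 0.20 for Gnaq, -0.14 to 0.045 for Itpr1 and -0.14 to 0.24 for Rgs8. Over the same fits 64 to 2269 genes were higher and 216 to 2397 lower, and 1 to 12 pathway genes were higher and 3 to 10 lower. The Homer3 share ran from -17.3 to -10.8 percentage points and the Gnaq share from 13.3 to 18.1; every exact permutation p of these 2 shares was the smallest its design allows, 0.0333 to 0.167, and with 1 library fewer none is under 0.05 once adjusted. Without batch 2, 2262 genes and 12 pathway genes were higher, Itpr1 was at 0.034 and the Homer3 share at -17.3. Without the batch term Rgs8 was at -0.016. The Wald test of DESeq2 called 9 pathway genes higher. No paired analysis was possible because the groups share no animal tags. Depth limits the low genes: Itpr2 and Itpr3 had 137 and 166 reads over all controls.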
